A study of Mus musculus with 16 samples.

Results

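Line 7298, a mouse T cell leukaemia or lymphoma (T-ALL) line labelled SCL/LMO1 transgenic, was compared with 4 T-ALL lines labelled Mcm2cre/cre (2883, 2696, 2641 and 2869). The comparison used 6 of the 16 libraries of the series: the parental culture of 7298, the parental cultures of the 4 Mcm2cre/cre lines, and the cytarabine-resistant derivative of 7298. They were chosen by the genotype and treatment labels, with no measured value. Parental cultures were given PBS, and the derivative was selected with cytarabine, a nucleoside analogue. The other 10 libraries are derivatives of the Mcm2cre/cre lines resistant to cytarabine (2), etoposide (2), methotrexate (1), prednisone (2) or vincristine (3), and served to widen the range of Mcm2cre/cre levels to 14 libraries. The 2 resistant to cytarabine were also set against resistant 7298, and resistant libraries entered alternative fits of 8 and 16 libraries. All lines were labelled as thymic in origin and all cultures were grown in the same medium.

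Each genotype is limited as a model. SCL/LMO1 is represented by 1 line, so the transgenes and everything else that sets that line apart cannot be told apart. Neither the promoters that drive the transgenes nor the strain and number of the source animals are stated in the labels. The 4 Mcm2cre/cre lines differ among themselves, and each parental line is 1 library, so the spread among the 4 is between lines. A difference is therefore counted only where 7298 lay above the highest or below the lowest of the 4. An exact permutation test of 1 library against 4 cannot give a p below 0.2.

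SCL, also called TAL1, is a basic helix-loop-helix transcription factor of blood stem cells and red cell precursors that is normally silent in maturing thymocytes. LMO1 is a LIM-only adaptor that joins TAL1 to LDB1 and GATA factors, and both are switched on in human T-ALL. TAL1 pairs with E proteins (Tcf3, Tcf12 and Tcf4), which bind DNA motifs called E-boxes and drive thymocyte genes, and this pairing lowers E protein activity. Mcm2 is a subunit of the MCM helicase that licenses and unwinds replication origins. Mice with a Cre insertion in Mcm2 make less of it and develop thymic lymphoma.

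Because TAL1 and the E proteins act through E-boxes, the promoters of called genes were searched for them. Shown are the 250 bases before the RefSeq start (GRCm38.p6, 5′ to 3′ on the strand of the gene) of 2 called genes per direction. They lie farthest beyond all 14 Mcm2cre/cre libraries among called genes with a RefSeq window outside the gene's span in the deposited table. Nefh (-5.90 log2 units beyond all 14, against -1.36 for Cenpb) was passed over for lack of a RefSeq window. Lmo1 was left out because it stands for a transgene. Capitals mark E-boxes of the forms CAGNTG and CANCTG, each the reverse complement of the other, so both strands are covered. Fam135a and Rps6ka6 were higher in 7298; Cenpb and Ahcy were lower.
Fam135a, chr1:24100342-24100591, minus strand: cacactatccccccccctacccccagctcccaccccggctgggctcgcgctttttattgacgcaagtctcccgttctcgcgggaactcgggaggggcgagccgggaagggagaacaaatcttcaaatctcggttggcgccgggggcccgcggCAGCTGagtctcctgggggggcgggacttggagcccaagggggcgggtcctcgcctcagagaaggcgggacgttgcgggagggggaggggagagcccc
Rps6ka6, chrX:111537960-111538209, minus strand: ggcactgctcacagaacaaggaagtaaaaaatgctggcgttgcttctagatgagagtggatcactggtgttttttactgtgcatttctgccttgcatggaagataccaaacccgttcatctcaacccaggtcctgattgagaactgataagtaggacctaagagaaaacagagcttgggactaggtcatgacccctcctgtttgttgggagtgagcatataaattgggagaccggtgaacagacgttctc
Cenpb, chr2:131180068-131180317, minus strand: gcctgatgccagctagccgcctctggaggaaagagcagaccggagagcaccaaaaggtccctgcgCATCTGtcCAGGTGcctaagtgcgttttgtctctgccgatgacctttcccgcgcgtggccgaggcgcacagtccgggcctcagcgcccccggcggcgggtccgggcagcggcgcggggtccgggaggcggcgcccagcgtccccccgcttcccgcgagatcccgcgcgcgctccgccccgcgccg
Ahcy, chr2:155074498-155074747, minus strand: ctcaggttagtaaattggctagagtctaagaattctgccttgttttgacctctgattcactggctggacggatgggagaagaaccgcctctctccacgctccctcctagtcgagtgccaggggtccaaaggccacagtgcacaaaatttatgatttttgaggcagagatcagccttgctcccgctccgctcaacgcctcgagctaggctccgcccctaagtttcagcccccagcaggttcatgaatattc

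Fam135a holds 1 E-box and 21 CG pairs, Rps6ka6 holds 0 and 4, Cenpb holds 2 and 34, and Ahcy holds 0 and 9. An E-box of these forms is in 37.2% of the promoters of genes tested (3487 of 9365 with a RefSeq window). It is in 18 of 39 promoters (46.2%) of genes higher in both 7298 libraries than in all 14 others by at least 1 log2 unit, and in 48 of 98 (49.0%) of those lower. A match describes these letters only.

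The deposited values were rescaled to CPM, a gene's reads as a share of the library's total, and differences are on log2(CPM + 1), which understates changes of low genes. Depth, read from the steps between low values, was 12614000 reads in parental 7298, 12144000 to 13497000 in the 4 Mcm2cre/cre parental libraries and 17677000 in cytarabine-resistant 7298. Mitochondrial transcripts took 3.30% of reads in parental 7298, within the 3.10% to 3.86% of the 4, and 2.31% in its derivative. The T-cell gene Cd3e was read in all 5 parental libraries, at 276 CPM in 7298 and 170 to 507 in the 4. Other T-cell genes did not all follow: Cd4 was not read in 7298 and Cd8a lay below the range of the 4, as given further below. Of markers of other cell types, few had a row: 2 of 11 for B cells, 2 of 12 for myeloid cells, 3 of 14 for erythroid cells and megakaryocytes, 2 of 12 for stroma and thymic epithelium, and 7 of 12 for NK and cytotoxic cells. The summed level of the last was 653 CPM in 7298 and 94.3 to 1646 CPM in the 4, mostly Gzma, and the summed levels of B cell (99.6 CPM, mostly Ighm), myeloid (19.8 CPM) and stromal (105 CPM) markers also lay within the ranges of the 4. The erythroid sum was 8.51 CPM against 2.62 to 6.42.

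Lmo1 (chromosome 7, 109138572 to 109175208) was read only in line 7298. It stood at 270 CPM (3407 reads) in the parental and 222 CPM (3931 reads) in the cytarabine-resistant library, and at 0 reads in each of the 14 Mcm2cre/cre libraries. The parental level was at least 1093-fold higher than in the 4, against a floor of 3 reads per library, which covers counting error only. It was called by limma (log2 difference 8.07 ± 0.43 SE, adjusted p = 0.0243). Tal1, the mouse gene for SCL, had 0 reads in parental 7298 and 1 read in its derivative, 0 to 12 reads in the 4, and up to 5.76 CPM in the 14. Whether a transcript of the SCL transgene would be counted under mouse Tal1 is not given in the sources used here, so these reads checked LMO1 but not SCL.

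Mcm2 (chromosome 6, 88883474 to 88898781) was higher in 7298 than in any Mcm2cre/cre library. The level was 320 CPM in parental and 446 CPM in cytarabine-resistant 7298, against 96.8 in 2883, 76.3 in 2696, 82.3 in 2641 and 114 in 2869 (92.4 ± 16.9 SD, n = 4). The groups did not overlap, and parental 7298 stood 2.81-fold above the nearest line. The highest of all 14 Mcm2cre/cre libraries was 187 CPM, in the cytarabine-resistant derivative of 2869. Limma did not call Mcm2 (log2 difference 1.80 ± 0.27, adjusted p = 0.142). The fits that add resistant libraries of the same lines did call it, at 0.0425 with 8 libraries and line as a random block, and at 0.000222 with all 16. These fits still hold 1 SCL/LMO1 line, and the p of the 16-library fit rests on the spread between cultures of the same lines, which are not replicates of the genotype.

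**Figure D1:**
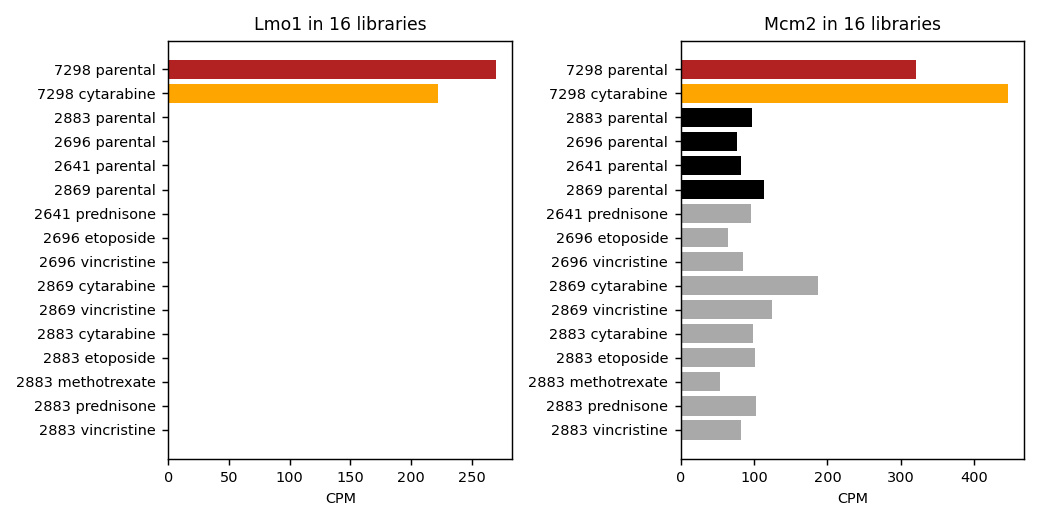
Levels of Lmo1 (left) and Mcm2 (right) in CPM, 1 bar per library, with line 7298 in dark red and orange, the 4 Mcm2cre/cre parental libraries in black and the 10 resistant Mcm2cre/cre libraries in grey. Lmo1 has bars in the 2 libraries of 7298 only, and both Mcm2 bars of 7298 (320 and 446 CPM) exceed the highest of the other 14 (187 CPM).

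The helicase and licensing genes as a list lay outside the range about as often as other genes. Of 30 tested, Mcm2 was the 1 above the range of the 4 by at least 1 log2 unit and 0 were below by as much, and at any distance 2 lay above and 8 below, beside 16.4% and 21.5% over all genes tested. Their median log2 difference was -0.24, beside -0.06 over all genes tested. Mcm7 (353 CPM against 245 to 378), Mcm3 (309 against 244 to 416) and Mcm5 (303 against 258 to 439), partners of Mcm2 in the helicase, lay within the range. Mcm4, another subunit, was at 145 CPM in parental 7298 against 214 to 381 in the 4, and at 372 CPM in the derivative. Cdc45, which activates the helicase, was at 24.5 CPM against 43.8 to 106, and at 60.3 CPM in the derivative. Both lie between 10 and 20 Mb of chromosome 16, in a stretch where 66 of 73 genes lay below the range in parental 7298.

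Over all genes, limma called 25 of 13096 (0.191%), 12 higher and 13 lower in 7298 (0.0916% and 0.0993%), and 818 had a p under 0.05 before adjustment (6.25%), of which 336 (2.57%) lay higher and 482 (3.68%) lower. These p-values measure the spread between single libraries of 4 lines and assume that 7298 varies like them. The split of the calls moves with low values: a pseudocount of 0.1 gave 3 higher and 47 lower, and no filter on low genes gave 46 higher and 15 lower. Limma called 0 without any 1 of the 4 comparison lines, with 733 to 1156 at an unadjusted p under 0.05. Each of these fits also has fewer residual degrees of freedom, so the loss cannot show whether the calls depend on a line. The Lmo1 difference was 8.07 in each. By the range, 248 genes were higher (1.89%) and 347 lower (2.65%) than all 4 by at least 1 log2 unit, and 2143 (16.4%) and 2821 (21.5%) at any distance, in all 37.9%. Without line 2696, 969 genes lay outside by at least 1 in place of 595, and on the FPKM scale 153 did. In cytarabine-resistant 7298, 567 of those 595 genes also lay outside the range of the 4 on the same side, 455 of them by at least 1; the 2 libraries are of the same line, so this is no independent line. All 25 called genes lay outside on the same side in the derivative, and 24 lay outside all 14 Mcm2cre/cre libraries in both; the exception was Ak4. In both 7298 libraries, 79 genes were above (0.603%) and 126 below (0.962%) all 14 by at least 1, together 1.57%.

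Among the genes higher in 7298, 6 beside Lmo1 had 0 reads in the 4 Mcm2cre/cre parental libraries and were called. Fam135a (chromosome 1, 24011093 to 24100342) stood at 106 CPM in parental and 64.2 CPM in cytarabine-resistant 7298, at least 429-fold above the 4 and with 0 reads in all 14 (log2 difference 6.73 ± 0.44, limma adjusted p = 0.0243). Yap1 (chromosome 9, 7931999 to 8004597), the transcriptional coactivator of the Hippo pathway, stood at 88.6 and 114 CPM, at least 359-fold above the 4 (6.47 ± 0.44, adjusted p = 0.0265). Yap1 was not silent in every Mcm2cre/cre culture: it reached 46.8 CPM in the etoposide-resistant derivative of 2883. Amot (chromosome X), which encodes the YAP-binding scaffold angiomotin, stood at 64.0 and 44.1 CPM, with at most 2 reads in the 4 and at most 0.703 CPM in the 14 (5.96 ± 0.45).

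Rps6ka6 (chromosome X, 111388192 to 111537960), a kinase of the RSK family, stood at 119 and 124 CPM, with at most 2 reads in the 4, and at 28.6 CPM in the vincristine-resistant derivative of 2883. Ly6k (chromosome 15), a GPI-anchored surface protein, stood at 50.7 and 67.7 CPM, Fgf13 (chromosome X), an intracellular relative of fibroblast growth factors, at 36.5 and 56.9 CPM, and Ugt8a (chromosome 3), a ceramide galactosyltransferase, at 33.2 and 53.6 CPM. These last 3 had 0 reads in all 14, and were at least 205-fold, 148-fold and 135-fold above the 4. The lincRNA Gm47015 was also called, at 72.9 and 171 CPM against 0 reads in the 4. Next in distance, and not called, were Clec2i (128 CPM), Dnah12 (84.9), Shisa6 (30.1), Tbx4 (23.3), Nrep (22.7), Pls3 (22.0) and Clvs1 (19.8), with limma adjusted p from 0.0531 to 0.0763. Clec2i, a lectin, was as high as 91.0 CPM in the vincristine-resistant derivative of 2869.

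Among the genes lower in 7298, Gfra1 (chromosome 19, 58235604 to 58455910), the GDNF co-receptor that acts with Ret, had 0 reads in both 7298 libraries. It stood at 536 CPM in 2883, 338 in 2696, 528 in 2641 and 261 in 2869, and between 242 and 711 CPM in all 14. The difference was at least 1099-fold from the lowest of the 4 (log2 difference -8.63 ± 0.46, limma adjusted p = 0.0243). Nefh, the heavy neurofilament chain, had 0 reads in 7298 and 74.6 to 169 CPM in the 4 (at least 314-fold lower). Ak4, a mitochondrial adenylate kinase, had 0 reads against 73.4 to 162 CPM (at least 309-fold lower), but also 0 reads in the etoposide-resistant derivative of 2696. Yipf6, a Golgi membrane protein encoded on chromosome X, had 0 reads against 35.1 to 52.1 CPM (at least 147-fold lower) and was at 20.5 CPM or more in each of the 14.

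Myo5a, a cargo-carrying myosin, stood at 0.0872 and 0.402 CPM in 7298 against 68.2 to 140 in the 4, and Celsr1, an adhesion receptor of planar cell polarity, at 0.563 and 0.119 against 74.1 to 147. Isyna1, which makes inositol phosphate from glucose 6-phosphate, stood at 0.801 and 0.685 CPM against 43.2 to 83.0. Cenpb, a centromere-binding protein, stood at 2.07 CPM in parental 7298 and 15.1 CPM in the derivative against 69.2 to 132. All 4 were called, with log2 differences of -6.55, -6.06, -4.98 and -4.81. The call of Cenpb was lost in the fit of 8 parental and cytarabine-resistant libraries with line as a random block (limma adjusted p = 0.147). Not called by limma, with adjusted p from 0.0588 to 0.183, were Xist, the linker histone H1f0, Foxp4, Syt13 and Prkar2b. Foxp4, a forkhead factor, had 0 reads in parental 7298 against 43.8 to 138 CPM in the 4.

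**Figure D2:**
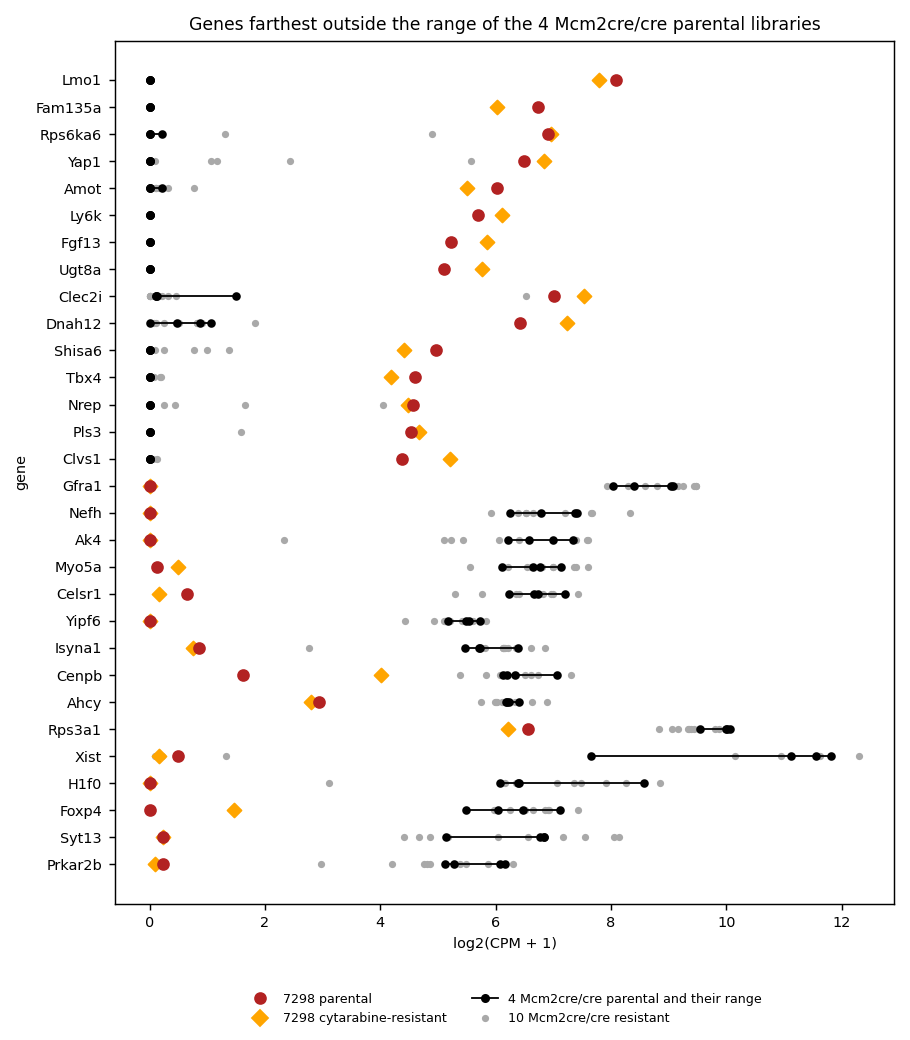
Levels on log2(CPM + 1) of the 15 genes per direction chosen by distance, 1 row per gene, in parental 7298 (red circle), cytarabine-resistant 7298 (orange diamond), the 4 Mcm2cre/cre parental libraries (black, joined by their range) and the 10 resistant ones (grey). In the upper 15 rows 7298 lies right of the black points and in the lower 15 left of them. Grey points of several genes lie well away from the black ones towards 7298, among them Rps6ka6, Yap1, Clec2i, Nrep, Ak4, Isyna1, Xist and H1f0.

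Genes read on 1 side only were counted with a stricter rule, at most 3 reads in every library of a side and at least 10 CPM in every library of the other. Over the 5 parental libraries 25 genes were on in 7298 alone (0.191%) and 33 in the 4 alone (0.252%). Over all 16 libraries 9 were on in both 7298 libraries alone (0.0687%) and 11 in all 14 Mcm2cre/cre libraries alone (0.084%). The 9 were Lmo1, Fam135a, Ly6k, Fgf13, Ugt8a, Clvs1, Tbx4 and the T cell receptor segments Trgc3 and Trav7-2. The 11 were Gfra1, Nefh, Yipf6, Syt13, Sall2, Plekha7, Melk, Nkd1, Neto2, Fam163b and the predicted gene Gm525. Sall2, a zinc finger factor, stood at 28.7 to 84.3 CPM in the 4, Melk, a kinase of dividing cells, at 14.8 to 49.5, and Nkd1, an inhibitor of Wnt signalling, at 19.4 to 84.3. Genes of these 20 that fall outside the naming rule were named after their values were seen.

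Of the 25 calls, 6 were processed pseudogenes, of 987 pseudogenes tested (0.608%, beside 0.191% over all genes tested). By the range, 32 of the 987 (3.24%) lay outside by at least 1, beside 4.54% over all genes tested. A further 2 calls, Rps3a1 and Ahcy, were genes with near-identical copies among the 6. Rps3a1, which encodes a ribosomal protein, stood at 93.3 CPM in 7298 against 749, 1020, 1035 and 1073, while its copy Rps3a3 (98.9% identical over 795 bases) stood at 767 CPM against 12.5 to 22.2. Summed over Rps3a1, Rps3a2 and Rps3a3, parental 7298 stood at 2469 CPM, its derivative at 1942 and the 4 at 1633 to 2346, so the sum was above the range in the parental library and within it in the derivative. The pseudogenes Rpl15-ps6 (253 CPM against 0.349 to 0.552) and Rpl15-ps2 (72.5 against at most 0.231) were called higher, while Rpl15 itself, at 420 CPM, lay within the 338 to 427 of the 4. The Rpl15 family, with 3 pseudogenes, summed to 995 CPM in parental 7298 and 831 in the derivative, against 661 to 876. Ahcy, which hydrolyses S-adenosylhomocysteine, stood at 6.65 CPM against 71.2 to 84.1 and its copy Gm9826 (99.2% identical) at 0.287 against 22.2 to 24.3. Gm7600 (98.2% identical to Rps3a1) and Gm9493 (99.5% identical to Rps7) were called lower. How reads of near-identical copies were assigned is not given in the sources used here, so the level of each single copy is uncertain.

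The partners of LMO1 lay outside the range about as often as other genes. Of 18 tested genes of the TAL1/LMO complex and the E proteins, Lmo1 was the 1 called and the 1 outside by at least 1, and the median difference was 0.06. At any distance 4 of the 18 lay above and 2 below, beside 16.4% and 21.5% over all genes tested. The cofactor Ldb1 stood at 174 CPM against 165 to 216, Gata3 at 272 against 93.4 to 349, and the E protein Tcf12 at 590 against 344 to 878. Runx1, which binds with the complex, stood at 276 CPM against 176 to 230. It lies beyond 80 Mb of chromosome 16, in a stretch where 47 of 60 genes lay above the range in parental 7298. Lmo2 had 0 reads in 7298 and Lyl1, a relative of Tal1, had 0 reads against 0.158 to 4.27 CPM. Tcf3, which encodes the E proteins E12 and E47, split the Mcm2cre/cre lines: it stood at 156 CPM in 7298, 139 in 2696 and 112 in 2641, and at 0 reads in 2883 and 2869. Of 7 tested genes reported as TAL1/LMO targets, 0 lay outside by at least 1, beside 4.54% over all genes tested. Trib2, a pseudokinase, stood at 155 CPM against 40.7 to 91.6.

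Genes reported as E protein targets in thymocytes lay on the low side in parental 7298. Of 14 tested, 7 lay below the range of the 4 and 0 above, beside 21.5% below and 16.4% above over all genes tested, and 3 were below by at least 1, beside 2.65%. The median log2 difference was -0.92 (-0.56 on FPKM), and 0 were called by limma. Dntt, the terminal transferase that adds bases at receptor joints, stood at 36.8 CPM against 320, 172, 307 and 142 (log2 difference -2.56 ± 0.53, adjusted p = 0.288). Ptcra, the pre-T cell receptor chain, stood at 13.4 CPM against 278, 66.1, 30.9 and 277. Socs3, an inhibitor of cytokine signalling, had 0 reads against 101, 6.41, 47.0 and 7.79 CPM, and 1 read in the derivative. Rag1 (504 CPM against 379 to 3492) and Rag2 (73.6 against 68.3 to 116), the receptor recombinase, lay within the range.

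In cytarabine-resistant 7298, 5 of the 14 lay below the 4 and 2 above, beside 30.1% and 18.7% over all genes, with a median of -0.23. Ptcra was there at 96.6 CPM, within the range, and Dntt at 95.6 CPM, below it. Against the 2 cytarabine-resistant Mcm2cre/cre libraries the median was -0.79. Socs3 was near 0 in both libraries of the line, whereas Ptcra was below the range in the parental library only. In bulk RNA, fewer cells that express a gene and less RNA per cell cannot be told apart.

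T cell surface and recombinase genes lay outside in both directions. Of 30 tested, 2 were higher and 5 lower by at least 1, beside 1.89% and 2.65% over all genes tested, and none was called. Cd24a, high on immature thymocytes, stood at 48.8 CPM in parental and 2.50 CPM in cytarabine-resistant 7298 against 126 to 750 in the 4. Cd8a stood at 11.7 and 2.72 CPM against 23.9 to 312, and Cd4 at 0 reads in both against 0.384 to 8.74 CPM. Ly6a, which encodes Sca-1, stood at 0.801 CPM against 5.05 to 17.6, and Ly6d at 0.246 against 3.17 to 25.8. On the other side, the activation marker Cd69 stood at 21.0 and 20.3 CPM against at most 7.02, and Cd48 at 34.9 and 22.8 CPM against at most 11.0.

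T cell receptor genes varied among the lines. Trac, the alpha chain constant region, stood at 80.8 CPM in parental and 65.4 CPM in resistant 7298, above the 1.74, 39.9, 0.158 and 8.30 of the 4. Trbc1 had 0 reads in parental 7298 and in 2696 and 124 to 320 CPM in the other 3, while Trbc2 stood at 532 CPM, within the 197 to 805 of the 4. Of 21 tested V, D and J segments, 4 were higher and 1 lower by at least 1, beside 1.89% and 2.65% over all genes tested. Trgc3 stood at 11.6 and 10.1 CPM, and Trav7-2 at 13.2 and 10.7 CPM, with at most 0.186 CPM in any of the 14.

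**Figure D3:**
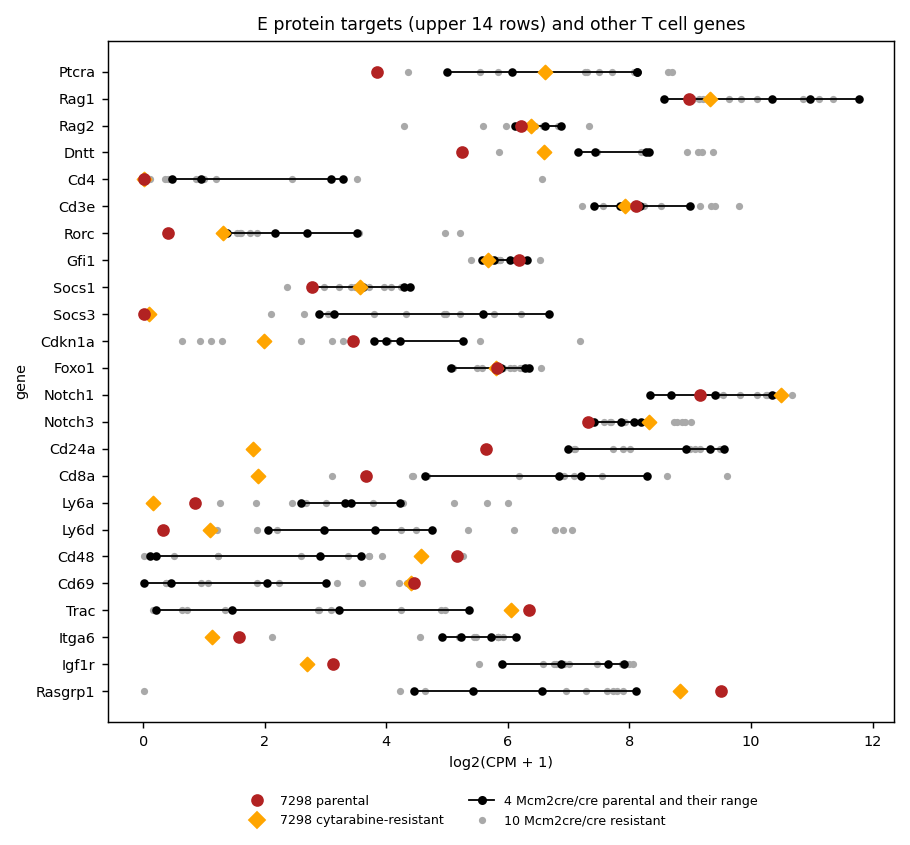
Levels on log2(CPM + 1) of the 14 E protein targets (upper rows) and 10 other T cell genes, with symbols for 7298, the 4 Mcm2cre/cre parental libraries and their range, and the 10 resistant libraries. The red circle lies left of the black range for 7 of the 14 targets and right of it for Cd48, Cd69, Trac and Rasgrp1.

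Signalling lists held single genes that stood apart. Of 27 tested Notch pathway genes, 1 was higher and 2 lower by at least 1, beside 1.89% and 2.65% over all genes tested. Notch1 itself (569 CPM against 322 to 1305) lay within the range, as did Myb (487 against 270 to 536). Igf1r, the insulin-like growth factor receptor and a reported Notch target, stood at 7.70 and 5.44 CPM against 59.1, 239, 116 and 200, and at 45.1 CPM or more in all 14 (log2 difference -3.96 ± 0.79, limma adjusted p = 0.271). Irs2, an adaptor below that receptor, lay on the other side at 16.3 CPM against at most 5.65. Rasgrp1, which activates Ras after receptor signalling, stood at 724 and 452 CPM against 21.0, 274, 93.2 and 41.9. It was the 1 of 29 T cell receptor signalling genes higher by at least 1, beside 1.89% over all genes tested. Itga6, the alpha 6 integrin, stood at 1.99 and 1.19 CPM against 29.3 to 69.0 (-3.92 ± 0.52, adjusted p = 0.109), and Icam1 at 5.39 CPM against 12.2 to 15.2. Pdgfrb, listed as a stromal marker, stood at 0.721 CPM against 11.2, 300, 229 and 22.4.

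Cholesterol biosynthesis was the list with the most members outside the range. Of 23 tested genes, 22 lay above all 4 Mcm2cre/cre lines in parental 7298 and 0 below, beside 16.4% and 21.5% over all genes, and 4 were above by at least 1, beside 1.89%. None was called by limma. The median log2 difference was 1.11, beside -0.06 over all genes, and 1.14, 1.13 and 0.95 after median-of-ratios scaling, after quantile normalization and on FPKM. Hmgcs1, which makes the first committed intermediate, stood at 1237 CPM against 625, 377, 333 and 277. Mvd, which makes isopentenyl pyrophosphate, stood at 103 CPM against 24.0, 30.9, 14.2 and 19.0 (2.23 ± 0.46, adjusted p = 0.285). Lss, which closes the sterol ring, stood at 345 CPM against 129, 101, 127 and 107 (1.58 ± 0.22, adjusted p = 0.119). Nsdhl, which helps remove its methyl groups, stood at 156 CPM against 43.8, 44.8, 32.5 and 32.8 (2.01 ± 0.28, adjusted p = 0.123). Ebp, a sterol isomerase, was the member within the range, and Srebf2, which encodes the factor that drives the pathway, stood at 524 CPM against 368 to 495.

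The derivative lay on the same side. In cytarabine-resistant 7298, 21 of the 23 lay above the 4 parental lines, beside 18.7% over all genes, with a median of 1.05. Against all 14 Mcm2cre/cre libraries, 8 of 23 were higher in both 7298 libraries, and 0 were lower, beside 3.15% and 4.55% over all genes. The summed level of the list was 6986 CPM in parental and 6807 CPM in resistant 7298, against 2667 to 4018 in the 4.

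**Figure D4:**
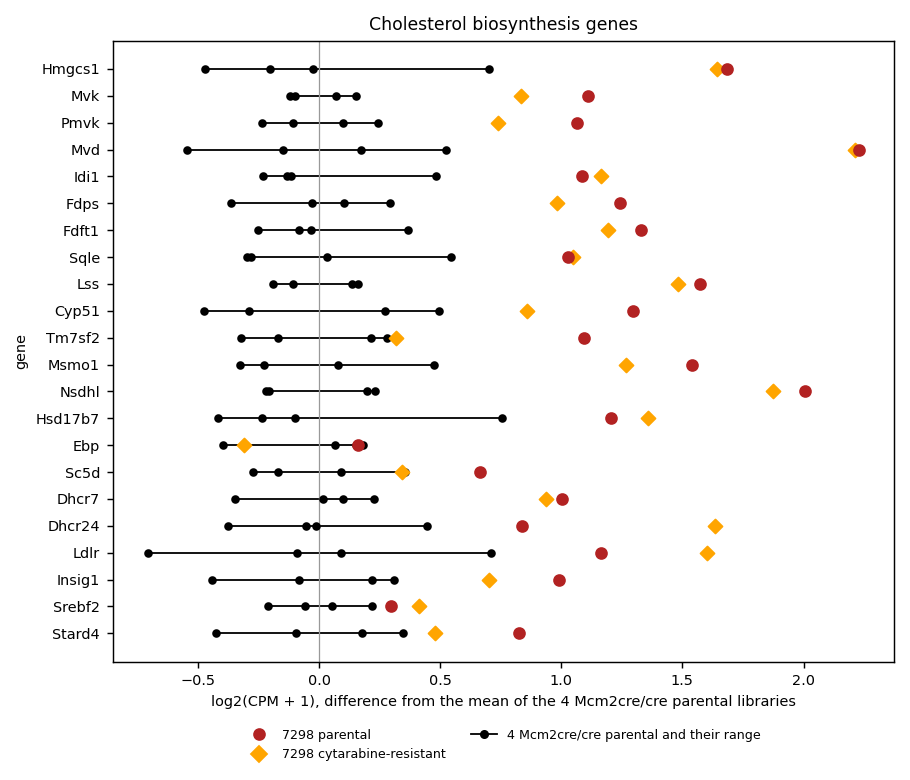
Differences on log2(CPM + 1) from the mean of the 4 Mcm2cre/cre parental libraries for 22 of the 23 cholesterol biosynthesis genes, with symbols for parental and cytarabine-resistant 7298 and for the 4 libraries and their range. The red circle lies right of the black range in every row drawn but that of Ebp.

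Most other lists held few or no members far outside the range. By at least 1, 0 of 25 T-ALL tumour suppressors, 0 of 28 checkpoint and repair genes, 0 of 32 mitosis genes, 0 of 18 p53 targets, 0 of 11 BCL2 family genes, 0 of 20 drug response genes, 0 of 18 MHC class I genes, 0 of 5 MHC class II genes, 0 of 34 glycolysis genes and 0 of 23 DNA methylation and Polycomb genes lay outside. Of 6 tested T-ALL oncogene loci, Lmo1 was the 1 outside by as much. Elsewhere single genes did: Spib (5.00 CPM against at most 1.90) of 32 T lineage factors, Mx2 (4.05 against at most 0.338) and Trim30a (31.2 against at most 12.2) of 26 interferon genes, and Cth (18.5 against at most 6.60) of 22 stress response genes were higher. Of 23 cell cycle entry genes E2f7 was lower, with 0 reads against 1.59 to 19.0 CPM, and Cdk6 stood at 228 CPM against 405 to 548. Of 4 tested genes listed as variable between mouse strains, 2 lay below the range of the 4, 1 of them by at least 1. Over all genes tested, 21.5% lay below and 2.65% by at least 1. The strain of the source animals is not stated in the labels. Over all lists 27 of 539 genes lay outside by at least 1, 15 higher and 12 lower, near the 4.54% over all genes tested.

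Xist, the RNA of the inactive X chromosome, stood at 0.404 CPM in parental and 0.119 CPM in resistant 7298, against 2233, 3613, 201 and 2995 in the 4. It was not called (log2 difference -10.05 ± 1.68, limma adjusted p = 0.183), and it does not separate the genotypes over all libraries. It was at most 1.51 CPM in 4 of the 10 resistant Mcm2cre/cre libraries (methotrexate-resistant 2883, prednisone-resistant 2641, and vincristine-resistant 2696 and 2869).

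Along the genome, chromosome 16 stood apart in 7298. Genes with a mean of at least 5 CPM in the 4 were grouped in windows of 10 Mb, a view added after seeing the data, which gave 198 windows of at least 20 genes. In 7298 the median difference of a window exceeded 0.5 in size in 4 windows, all on chromosome 16. On the other chromosomes its medians ran from -0.35 to 0.41. Single Mcm2cre/cre lines had shifted stretches too, with a median of 0.91 in 2869 from 20 to 30 Mb of chromosome 6. Over chromosome 11 the median of 2641 was 0.33. In the first 30 Mb, 110 of 154 genes lay below the range of the 4 and 1 above, beside 21.8% and 15.8% over the 10598 genes used, with a median of -0.80. From 80 Mb to the end, 47 of 60 lay above and 5 below, with a median of 1.08, and 19 were above by at least 1, beside 0.679%. In the first 30 Mb, 15 were below by at least 1, beside 2.88%. Between them, from 30 to 80 Mb, the median was -0.07. The same medians of each of the 4 lines lay between -0.08 and 0.11 in all 3 stretches. Each of the 4 is part of the mean it is compared with, which narrows its difference, whereas 7298 is not.

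The low stretch was clearest from 10 to 20 Mb, where 66 of 73 genes lay below the range and 0 above (median -0.94). Mrpl40, a mitochondrial ribosomal protein, stood at 18.6 CPM against 45.2 to 55.4, below in parental 7298 but within the range at 45.4 CPM in the derivative. From 20 to 30 Mb, 26 of 45 genes lay below (median -0.58). There Abcf3, an ATP-binding protein, stood at 18.4 CPM against 45.5 to 50.0, and Rfc4, a subunit of the clamp loader of DNA replication, at 26.8 against 59.8 to 90.7. In cytarabine-resistant 7298 the medians of these windows were 0.01 and 0.22. From 10 to 20 Mb, 16 genes of the derivative were below the 4 and 18 above, beside 27.2% and 19.5%. In the derivative Abcf3 was at 40.3 CPM and Rfc4 at 58.8. In the first 10 Mb the median was -0.65 in the parental library, with 18 of 36 genes below the range, and -0.49 in the derivative, with 13 below. The 4 lines themselves spread more widely there, with medians from -0.29 in 2696 to 0.34 in 2883.

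The high stretch was kept in the derivative, with 42 of 60 genes above the 4, beside 19.5% over all genes used, and a median of 0.88, and 0.82 against the 2 cytarabine-resistant Mcm2cre/cre libraries. Son, a splicing cofactor (91647506 to 91679222), stood at 2581 CPM in parental and 1704 CPM in resistant 7298 against 819, 670, 613 and 724. Cct8, a chaperonin subunit, stood at 2086 and 1772 CPM against 527 to 681, Gart, which makes purines, at 595 and 614 against 177 to 263, and Sod1, superoxide dismutase, at 438 and 358 against 159 to 201. Gabpa, an ETS factor, stood at 312 and 243 CPM against 112 to 135, Chaf1b, a histone chaperone, at 149 and 142 against 41.8 to 72.6, and the interferon receptor gene Ifnar1 at 201 and 131 against 48.5 to 106. None of these genes was called alone by limma. The genes of this stretch and of the low one were named after their values were seen. Why the level changed along the chromosome was not tested. Of the 595 genes outside by at least 1, 25 higher and 23 lower lie on chromosome 16, which holds 413 of the genes tested.

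**Figure D5:**
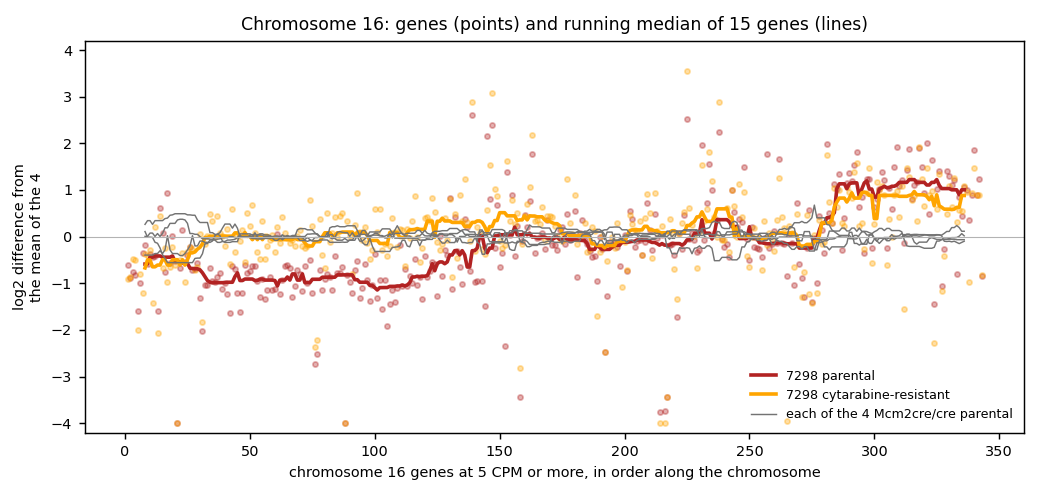
Difference on log2(CPM + 1) from the mean of the 4 Mcm2cre/cre parental libraries for 343 genes of chromosome 16 in their order along it, as points for parental (red) and cytarabine-resistant (orange) 7298 and running medians of 15 genes as lines, with the 4 libraries in grey; points beyond 4 are drawn at 4. The red line runs near the window median of -0.94 from 10 to 20 Mb, between windows with medians of -0.65 and -0.58. Both coloured lines run near the medians of 1.08 and 0.88 at the end. The grey lines, each part of the mean they are drawn against, stray from 0 in places. Window medians of the 4 libraries run from -0.29 to 0.34 in the first 10 Mb. From 70 to 80 Mb, with 10 genes, they run from -0.48 to 0.72.

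In the cytarabine-resistant state, 7298 was set against the 2 cytarabine-resistant Mcm2cre/cre libraries (2883 and 2869), with no test. By at least 1 log2 unit, 412 genes were higher (3.15%) and 946 lower (7.22%), together 10.4%. Of the 595 genes outside in the parental state, 139 of the 248 higher and 267 of the 347 lower were outside on the same side here, and 1 was outside on the opposite side. Lmo1 was again read in 7298 alone, and Mcm2 stood at 446 CPM against 97.9 and 187. Both states share the lines 2883 and 2869 and the line 7298, so the counts are not independent.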

How the data were processed

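Each of the 16 libraries is bulk stranded mRNA sequencing of 1 cell culture. The authors deposited FPKM values per gene; per the submitters' processing notes, cutadapt, STAR, Partek and mm10 were used, and how reads were counted, and on which annotation, is not stated there. In the deposited table gene length is the whole span from start to stop, and a small constant was added to each value. FPKM times length in kb gave CPM, with genes at 1 CPM or more in at least 1 of the 5 parental libraries tested (13096).

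Between 70.8% and 75.8% of low values were whole multiples of 1 read (within 0.05 of a read), too few for a count test, so reads and depths are inferred. Limma 3.58.1 in R 4.3.3 (eBayes with trend) was fitted to log2(CPM + 1), 1 library against 4 with 3 residual degrees of freedom, two-sided, with Benjamini-Hochberg adjustment over all genes at 0.05, and was tested on simulated data. Floors of 3 reads cover counting error only. Copies were matched to coding transcripts with blastn 2.17.0. Of the symbols, 13201 are in the GENCODE annotation.

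The genes named were up to 15 per direction by distance beyond the nearest of the 4 lines, called genes first and only where cytarabine-resistant 7298 lay on the same side, with predicted models and receptor segments left out, and up to 6 members of each list. The members and the 35 gene lists were chosen with earlier results of these data known. Alternatives were another pseudocount, the FPKM scale, other filters and scalings, leaving out each line, the other 7298 library, no trend, and fits of 8 and 16 libraries. Values of some single genes are not reported here.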

Additional observations from a re-analysis of the deposited data

Results flagged for a closer look

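In 99 genes checked, 6 had a library among the 4 Mcm2cre/cre parental libraries whose gap to its neighbour, as a share of the whole range, exceeded Dixon's 95% critical value for 4 values; chance alone exceeds it in about 1 of 20 such groups. The shares were 0.991 for Clec2i in 2641, 0.861 for Rps3a1 in 2883, 0.833 for Xist in 2641, 0.869 for H1f0 in 2641, 0.962 for Syt13 in 2869 and 0.844 for Melk in 2696. In each, 7298 still lay outside all 4 libraries.

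From 20 to 30 Mb of chromosome 16 the median difference of 7298 from the Mcm2cre/cre lines was -0.58 in the parental state and 0.206 in the cytarabine-resistant state. The 2 states thus lay on opposite sides of 0, and the difference between them was not tested.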

How the results depend on the processing

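Limma called 25 genes. It called 50 with a pseudocount of 0.1, 61 with no filter, 14 at a minimum of 10 CPM, 40 with the cytarabine-resistant 7298 library in place of the parental, 79 without the trend, 141 with 8 libraries and line as a random block, 1050 with 16 libraries, and 0 to 0 without any 1 line. The 595 genes outside the range by at least 1 became 898 with a pseudocount of 0.1, 153 on FPKM, 4964 at any distance, 234 at 2 log2 units, and 719 to 969 without 1 line. On FPKM the 205 genes beyond all 14 became 51, the 1358 of the cytarabine-resistant state 370, and the 27 list members 12. Of the 18 named genes called, 11 were called with a pseudocount of 0.1, 7 on FPKM, 10 at a minimum of 10 CPM and 0 to 0 without 1 line. The Lmo1 difference was 8.07 in each of these fits on CPM that lost its call, at a minimum of 10 CPM (limma adjusted p = 0.0942) and without 1 line (8.07 to 8.07, adjusted p from 0.102 to 0.154). The Mcm2 difference was 1.80 with 8 libraries and 1.86 with 16, both then called. With the cytarabine-resistant 7298 library in place of the parental, Rpl15 (-0.10) and Mcm4 (0.42) changed sign. Median-of-ratios scaling changed no call of the 99 genes checked, and moved the median of all genes from -0.06 to -0.03. The median of E protein targets was -0.56 on FPKM and that of MHC class II genes -0.21, against -0.92 and -0.81. Counted from the same fit after seeing the data, with no new fit, 18 of the 25 calls were coding genes. Leaving out chromosome 16 in the same way left all 25, since no call lies there. No paired analysis was possible because the labels carry no replicate numbers and each line has 1 parental library. With 1 library of 7298 per state, the spread within that line was not measured. Depth limits low genes, since 3 reads are 0.238 CPM in parental 7298.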

Other observations

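Glycolysis and hypoxia genes separated the 2 libraries of 7298 from each other. Of 34 tested, 12 lay above the 4 Mcm2cre/cre parental libraries and 2 below in the parental library, beside 16.4% and 21.5% over all genes tested. In the cytarabine-resistant library 0 lay above and 25 below, beside 18.7% and 30.1%. The summed level was 19420 CPM in parental and 8395 CPM in resistant 7298, against 10829 to 21136 in the 4. The median difference was 0.37 and -0.76. This list therefore gave no difference of the line as a whole.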
